A study of Mus musculus with 2 samples.

Results

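The 46 genes described here are mouse imprinted genes, taken by name from a list of genes known to be expressed mainly or only from the maternal or the paternal copy. They were matched by symbol to 46 of the 55536 named genes in the tables, and they lie in 20 imprinted clusters on 11 chromosomes. The levels were measured in 2 total RNA libraries, biological replicates 1 and 2 of the only group of the study. The tissue was gastrocnemius, a calf muscle, of 10-day-old female B6CASTF1/J mice, the F1 cross of the inbred strains C57BL/6J and CAST/EiJ. No treatment, second genotype or second age was part of the study, so there is no contrast between conditions to test. Both libraries came from separate biosamples that share a donor entry in the labels, and the spread between them may be biological or technical.

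Genomic imprinting marks the copies of a gene differently in egg and sperm by DNA methylation at control regions, and the mark decides which parental copy is transcribed after fertilisation. Many imprinted genes sit in clusters in which a long noncoding RNA is made from the parental copy on which the neighbouring coding genes are silent. As a class they are known for control of fetal and early postnatal growth, and several, among them H19, Igf2, Dlk1, Meg3 and Grb10, are known to be highly expressed in growing muscle. An F1 cross of distant strains is a usual material for telling the parental copies apart, but the tables give 1 total per gene and hold no allele-specific value. The known parental copy is therefore given below as background, and nothing here measures it.

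The gene tables hold 35925081 expected counts in replicate 1 and 39969380 in replicate 2, so the 3-count floor of a gene at 0 corresponds to 0.0835 and 0.0751 CPM, counts scaled to the library's depth. Counting intervals below cover counting error only. All 8 markers of skeletal muscle fibres had a TPM of at least 4947 in each library, and they were higher in replicate 2 by a median log2 ratio of 0.51. The 8 bone and cartilage markers summed to a TPM of 269 and 14.8: the bone matrix genes Ibsp and Bglap went from 34.2 and 77.5 to 0, while the cartilage genes Col2a1, with 14.7 and 11.5, and Acan, with 2.24 and 1.54, had log2 ratios of -0.08 and -0.29. The 8 granulocyte markers summed to a TPM of 59.0 and 2.12, with Ngp, Camp and Elane at 0 in replicate 2. The 8 adipocyte markers summed to 173 and 127 TPM, and the 8 fibroblast and matrix markers to 7890 and 4847. Fabp4, with 145 and 116 TPM, made up most of the adipocyte sum and had a log2 ratio of -0.12. The 5 adipocyte markers that averaged at least 100 counts had a median of -1.27, with Plin1 at -1.80. Of the 8 fibroblast and matrix markers 7 were lower, Col1a1 at -0.66 and Col1a2 at -0.62 but Pdgfra at -0.03, and Dcn was higher at 0.10. The nuclear-retained noncoding RNAs summed to 2396 and 1264 TPM, most of it Malat1. In bulk RNA, fewer cells of a type and less RNA per cell cannot be told apart.

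TPM is a length-scaled share of transcripts and can be compared between genes. Detection was set at a TPM of at least 1 in each library. Of the 46 imprinted genes, 34 were detected, beside 22.6% of all named genes, 52.3% of nuclear protein-coding genes and 3.49% of long noncoding genes. Of the detected genes 9 had a mean of 100 TPM or more, 15 lay between 10 and 100 and 10 were below 10, the lowest being Peg13 at 2.15. Together the 46 genes held 1.38% of the TPM of named genes in replicate 1 and 1.13% in replicate 2 (1.25% ± 0.178, SD, n = 2). H19 alone was 53.0% and 61.8% of that sum, and the Dlk1-Dio3 cluster was 30.0% and 18.6%. Of the 19 genes with a known maternal copy 15 were detected, and they summed to 1.17% ± 0.161 of named TPM. Of the 27 with a known paternal copy 19 were detected, and they summed to 0.0866% ± 0.0167. Without H19 the maternal sum was 0.453% ± 0.137. Gnas counts as maternal here, although most of it started at the Gs-alpha exon described below. Ube3a counts as maternal too, although it is known to be expressed from both copies in most cells other than neurons. The sums group genes by the listed copy and do not measure the copy expressed in this tissue. Igf2, a paternally expressed gene with a TPM of 2933 and 2437, is not among the 46. The sums therefore depend on which genes were listed.

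**Figure D1:**
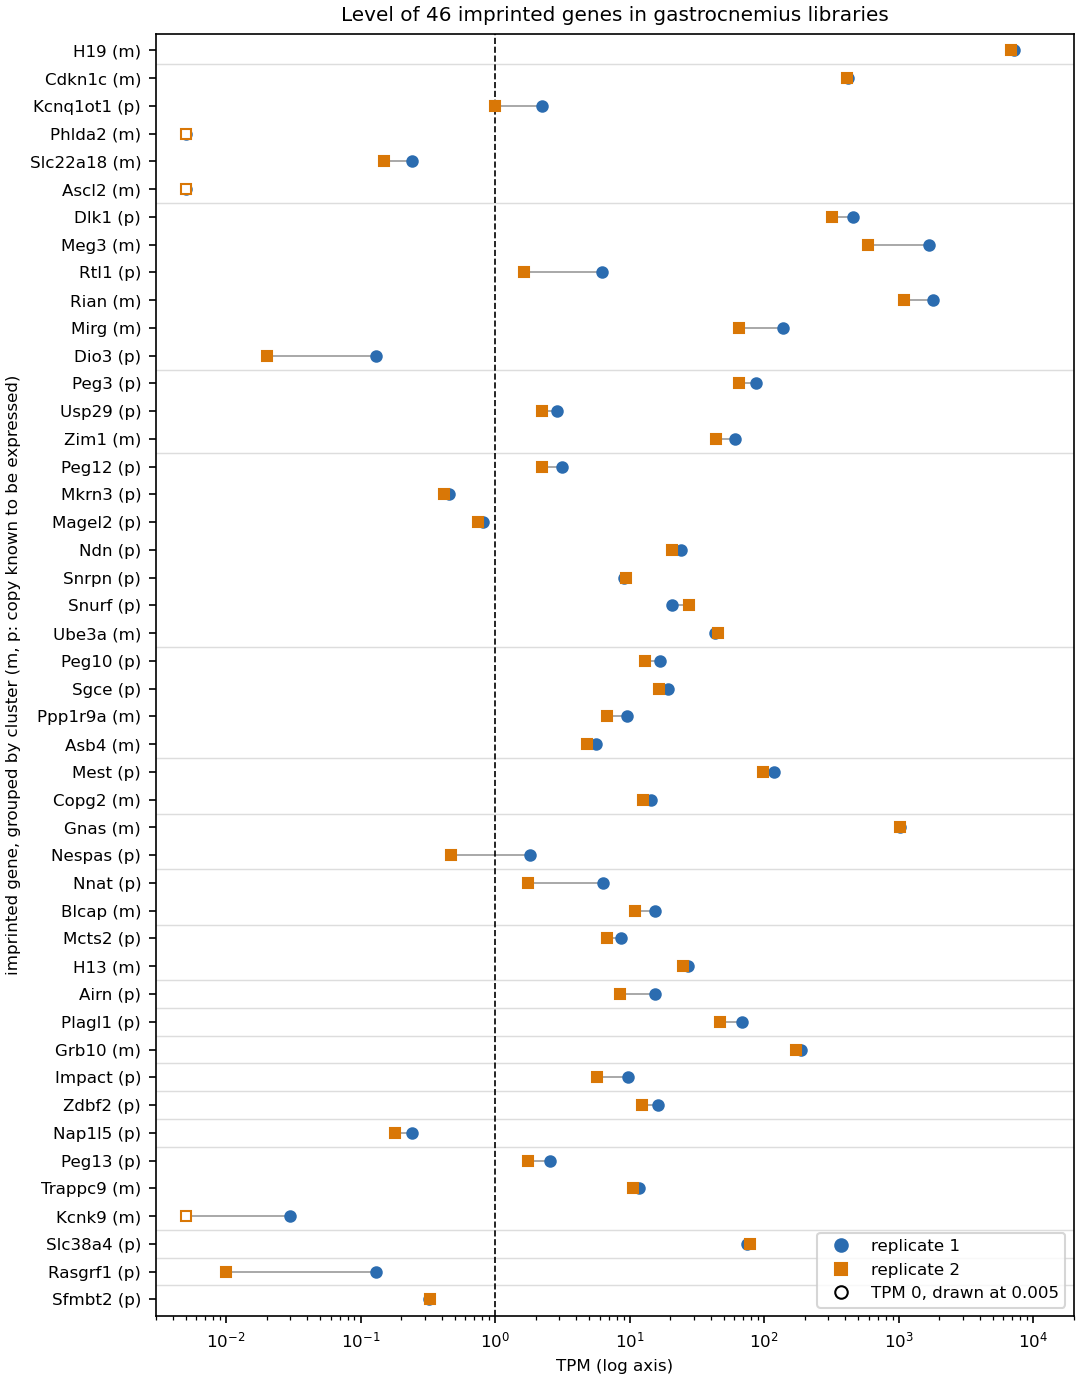
Level of each of the 46 imprinted genes in TPM on a log axis, with replicate 1 as blue circles, replicate 2 as orange squares and grey lines joining them. The letters m and p mark the copy listed as expressed, which was not measured here and for some genes holds only in certain tissues. Horizontal lines separate clusters and the dashed line is TPM 1. H19 stands highest at 7217 and 6881 TPM, the 5 detected genes of the Dlk1-Dio3 cluster are lower in replicate 2, and Phlda2 and Ascl2 are at 0 in both libraries.

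H19, a maternally expressed long noncoding RNA of chromosome 7 (142575529 to 142578143, minus strand, mm10), was the most abundant of the 46 genes. It had a TPM of 7217 in replicate 1 and 6881 in replicate 2, rank 17 of all named genes, from 419681 and 432854 counts. Igf2, the paternally expressed growth factor gene that shares its enhancers, had a TPM of 2933 and 2437. The ratio of H19 to Igf2 TPM was 2.46 and 2.82. Nctc1, a noncoding RNA from the muscle enhancer side of the locus, was at 33.0 and 30.6 TPM, and the pancreatic gene Ins2 had no count. H19 is the precursor of miR-675, a regulator of growth genes, and both mature arms were found letter for letter in H19-202, the leading transcript with 87.4% and 78.1% of H19. The 5p arm lies at bases 1011 to 1032 and the 3p arm at bases 1045 to 1066 of that transcript. They are shown because they are the part of the highest imprinted RNA with a product of its own; capitals mark the seed, bases 2 to 8, and the sequences are from RefSeq (GRCm38.p6).
mmu-miR-675-5p: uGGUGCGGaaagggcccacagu
mmu-miR-675-3p: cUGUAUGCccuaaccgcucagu
The arms have different seeds. The precursor row of Mir675 had an effective length of 0, as had all 3 small RNA rows at the locus, and could take no counts.

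In the Kcnq1 domain, downstream of Igf2-H19 on chromosome 7, 1 of the 5 listed genes was detected. Cdkn1c, a maternally expressed inhibitor of cyclin-dependent kinases, had a TPM of 423 and 412 (417 ± 7.40, SD, n = 2). This TPM was nearly the same in both libraries. The kallisto-format TPM was 710 and 607, while the log2 ratio of scaled counts, as set below, was 0.22, so the direction depends on the measure. Kcnq1ot1, the long paternal noncoding RNA that silences the domain in other tissues, had 5865 and 2957 counts over an annotated 93092 bases, which gave a TPM of 2.24 and 0.99. It was just below detection in replicate 2 in spite of its count, because TPM is scaled by length. Phlda2, a brake on placental growth, and Ascl2, a trophoblast transcription factor, had no count in either library. Slc22a18, a transporter gene, had 10 and 7 counts. Kcnq1, the potassium channel gene that Kcnq1ot1 overlaps in antisense over its whole length, was at TPM 0.82 and 0.49. Whether the counting used strand is not stated, so reads of overlapping antisense partners may have been assigned to either gene.

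The Dlk1-Dio3 cluster on chromosome 12 held the largest difference in summed TPM between the libraries of the 20 clusters. Its 6 listed genes summed to a TPM of 4088 in replicate 1 and 2067 in replicate 2, a ratio of 1.98. Dlk1, a paternally expressed transmembrane Notch-pathway ligand of precursor cells, had a TPM of 458 and 317. Meg3, a maternally expressed long noncoding RNA, had a TPM of 1677 and 587. Replicate 1 was the higher library for both, with a wider gap for Meg3. Rian, the maternal host of C/D-box small nucleolar RNAs, had a TPM of 1810 and 1096, and Mirg, the maternal host of a large microRNA group, had 137 and 65.1. Rtl1, a paternally expressed gene derived from a retrotransposon and known in mouse for roles in placenta and muscle, had a TPM of 6.18 and 1.65. Dio3, which inactivates thyroid hormone, had 5 counts and 1 count and was below detection. Every listed gene of the cluster had a lower TPM in replicate 2, though Dio3 had too few counts to show a direction. Among the imprinted genes of all clusters, 38 had a lower TPM in replicate 2 and 6 a higher one. A lower TPM in replicate 2 was therefore usual and not particular to this cluster.

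The size of the difference was set as a log2 ratio of CPM, replicate 2 over replicate 1, with the TMM scaling that centres the bulk of genes, for the 35 imprinted genes that averaged at least 100 counts. With 1 library on each side no test is possible. Meg3 had a log2 ratio of -1.40 (95% counting interval -1.43 to -1.38), which is a 2.65-fold lower value in replicate 2. Rtl1 had -1.66 (-1.84 to -1.48) and Mirg -0.98 (-1.04 to -0.92). Rian had -0.43 and Dlk1 -0.27, which both lie inside the middle 95% of all genes, from -0.62 to 0.53. The 5 genes of the cluster were therefore lower together but by unequal amounts. The ratio of Rian to Meg3 TPM was 1.08 in replicate 1 and 1.87 in replicate 2, and that of Meg3 to Dlk1 was 3.66 and 1.85. Scaling by library totals or by spike-ins moves the log2 ratios of all genes down, by -0.21 and -0.36. All 5 therefore stayed lower under both, and these scalings could not have shown otherwise.

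Most transcripts of these genes were lower as well. A model splits shared reads among the transcripts of a gene, so their ratios largely repeat the gene's own. The share of all transcripts lower in replicate 2 was not computed. Of the 10 Meg3 transcripts with a mean count of at least 100, 10 were at least 2-fold lower in replicate 2, with a lowest log2 ratio of -1.86 and a median of -1.29. Of the 16 Rian transcripts 15 were lower and 7 at least 2-fold lower, with a median of -0.95. The leading transcript Rian-202, with 46009 and 36123 counts, had a log2 ratio of -0.29, and the next in count, Rian-213, with 13478 and 11598 counts, had -0.16. All 7 Mirg transcripts were lower, from -1.61 to -0.38, and so were the 6 Dlk1 transcripts, from -0.91 to -0.15. Between Rian's first exon and Mirg lie 3 other long RNAs of the plus strand with enough counts: Gm26945, inside the span of Rian, and Gm37899 and B830012L14Rik further downstream. Their TPM was 18.5 and 5.93, 14.0 and 4.20, and 12.3 and 4.17. Their log2 ratios were -1.39, -1.49 and -1.31, close to that of Meg3. Begain and Wars, both upstream of Dlk1, had log2 ratios of -0.46, from a mean count under the limit, and 0.23.

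**Figure D2:**
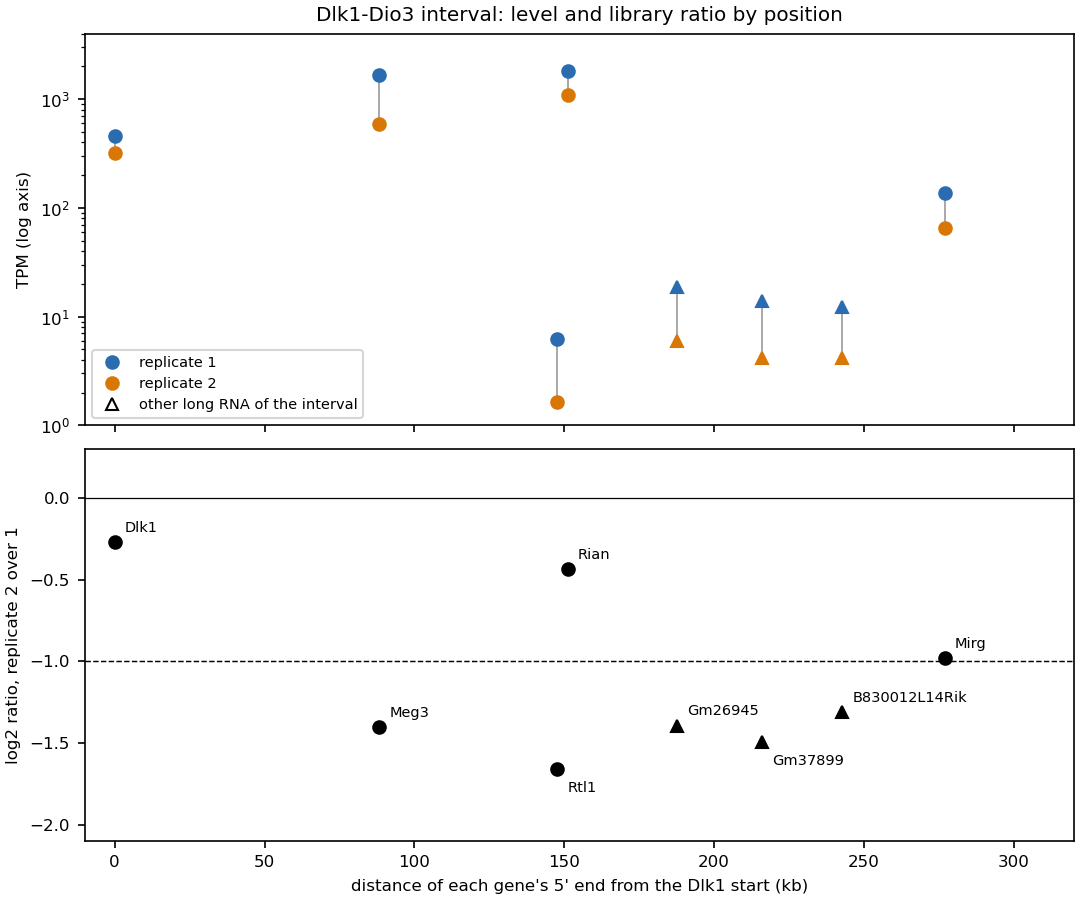
Upper panel: TPM on a log axis of the genes of the Dlk1-Dio3 interval that averaged at least 100 counts, in replicate 1 (blue) and replicate 2 (orange), against the distance of the 5′ end from the Dlk1 start in kb; circles are listed imprinted genes and triangles other long RNAs. Lower panel: their log2 ratio, replicate 2 over replicate 1, with a dashed line at a 2-fold lower value. All 8 genes lie below 0, from -0.27 for Dlk1 to -1.66 for Rtl1.

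The start of Meg3 is shown because its promoter is known to take its imprint from the intergenic control region of the cluster and because the noncoding RNAs of the interval were lower together. The sequence is the RefSeq window of 250 bases before to 50 after a Meg3 start at chr12:109540746-109541045, plus strand, GRCm38.p6. Capitals mark the hexamer TGCCGC or its reverse complement GCGGCA, the core that the imprint-protecting factor ZFP57 is known to bind when methylated; both strands were searched and no other motif.
Meg3: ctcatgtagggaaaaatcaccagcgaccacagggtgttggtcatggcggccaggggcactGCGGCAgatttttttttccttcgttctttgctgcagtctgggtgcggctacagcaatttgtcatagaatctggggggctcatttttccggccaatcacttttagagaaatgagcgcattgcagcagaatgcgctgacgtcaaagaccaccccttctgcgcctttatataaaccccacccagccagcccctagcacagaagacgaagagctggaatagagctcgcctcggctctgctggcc
The window has 1 match, 13 CpG dinucleotides and a GC content of 53.7%. Of all 32851 windows of this length 11.6% hold the hexamer, and of the 52 windows of 36 imprinted genes 13 do (25%); some genes have several overlapping windows. A match is only a description of the letters.

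The interval also carries 58 annotated microRNA hairpins with 109 mature arms, 54 of the hairpins on the plus strand with the maternal noncoding RNAs. The mature arms have 99 different seeds, and 20 of them fall into 10 pairs that share a seed. Libraries of this kind do not capture mature microRNAs. Of 94 small RNA gene rows in the interval, 85 had an effective length of 0 and so could not take counts, and 4 had any. Mir433 had 84 and 33 counts, Mir1188 12 and 5, and Mir1197 12 and 3, each with fewer counts in replicate 2. The other small RNA rows among the 5 with the most counts in any cluster were Gm23833, inside Airn, with 22 and 18 counts, and Gm26407, inside Impact, with 7 and 7. The hairpins of miR-431, miR-433, miR-127, miR-434, miR-432 and miR-136 are encoded opposite Rtl1: the reverse complement of each hairpin was found inside Rtl1-201. The maternal microRNAs are known to be fully complementary to the paternal Rtl1 messenger and to direct its cleavage in mouse. An arm of 5 of them is shown as the site of that overlap, with the seed in capitals and the sequences from RefSeq (GRCm38.p6).
mmu-miR-431-5p: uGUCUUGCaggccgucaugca
mmu-miR-433-3p: aUCAUGAUgggcuccucggugu
mmu-miR-127-3p: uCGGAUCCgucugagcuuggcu
mmu-miR-434-3p: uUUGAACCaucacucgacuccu
mmu-miR-136-5p: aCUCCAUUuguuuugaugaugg
In the order given their sites lie at bases 5072 to 5092, 3749 to 3770, 2642 to 2663, 965 to 986 and 199 to 220 of Rtl1-201, and no seed is shared. Since Mir433 lies opposite Rtl1, its counts and those of Rtl1 may hold reads of each other.

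Across all 35 imprinted genes with enough counts, 22 were lower in replicate 2 and 13 higher, beside 41.9% of 11759 genes lower. Meg3, Rtl1 and Nnat were at least 2-fold lower, beside 0.859% of all genes, 0.556% of protein-coding genes and 7.18% of long noncoding genes, and none was at least 2-fold higher, beside 0.204%. Airn, Kcnq1ot1 and Mirg lay below the middle 95% of all genes as well, and the other 29 genes lay inside it. Most of these genes are protein-coding, while Airn, Kcnq1ot1 and Mirg are long noncoding RNAs. The middle 95% of the 195 long noncoding genes ran from -1.19 to 0.61. Airn, Kcnq1ot1 and Mirg lay inside that range, and Meg3 lay below it. The median log2 ratio of the imprinted genes was -0.13, against 0.05 for all genes. Scaling by library totals moved the median of all genes by -0.21 and scaling by spike-ins by -0.36. With totals 31 of the 35 were lower and with spike-ins all 35, so the direction of the genes near 0 depends on the scaling. The median of all genes was then -0.16 with totals and -0.31 with spike-ins, so most genes were lower too. The shares of all genes lower, or at least 2-fold lower, were not computed under these scalings. With totals 5 were at least 2-fold lower and with spike-ins 6, in each case with Meg3, Rtl1 and Nnat among them. Both scalings move every ratio down, so Meg3, Rtl1 and Nnat could not have left the group.

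By median log2 ratio the noncoding genes of the list stood lower than the coding genes, as did long noncoding genes beside protein-coding genes at large. Of the 7 noncoding genes with enough counts 6 were lower, beside 60.5% of all 195 long noncoding genes. Their median log2 ratio was -0.67, beside -0.14 for all 195. Meg3, Rian and Mirg share the Dlk1-Dio3 cluster. Outside it the lower genes were Kcnq1ot1 at -0.93, Airn at -0.67 and Peg13 at -0.30, and H19 at 0.10 was the exception. The median of these 4 was -0.48. The 28 coding genes had a median of -0.05, beside 0.05 for all protein-coding genes, and the 26 outside the Dlk1-Dio3 cluster -0.02. Airn, the paternal noncoding RNA that overlaps and silences Igf2r, had a TPM of 15.5 and 8.53, while Igf2r, the maternally expressed receptor that clears IGF2, had 50.6 and 41.0. Nespas, the paternal antisense RNA of the Gnas locus, had 91 and 25 counts and a log2 ratio of -1.78, from too few counts to enter the comparison. The nuclear-retained RNAs Malat1, Neat1 and Xist had ratios of -0.76, -0.66 and -0.66 in the same libraries, and Tug1, of the same list, had -0.05. The bone, granulocyte and adipocyte markers given above were lower in the same library, and the part of any of these in the imprinted genes' ratios was not tested.

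**Figure D3:**
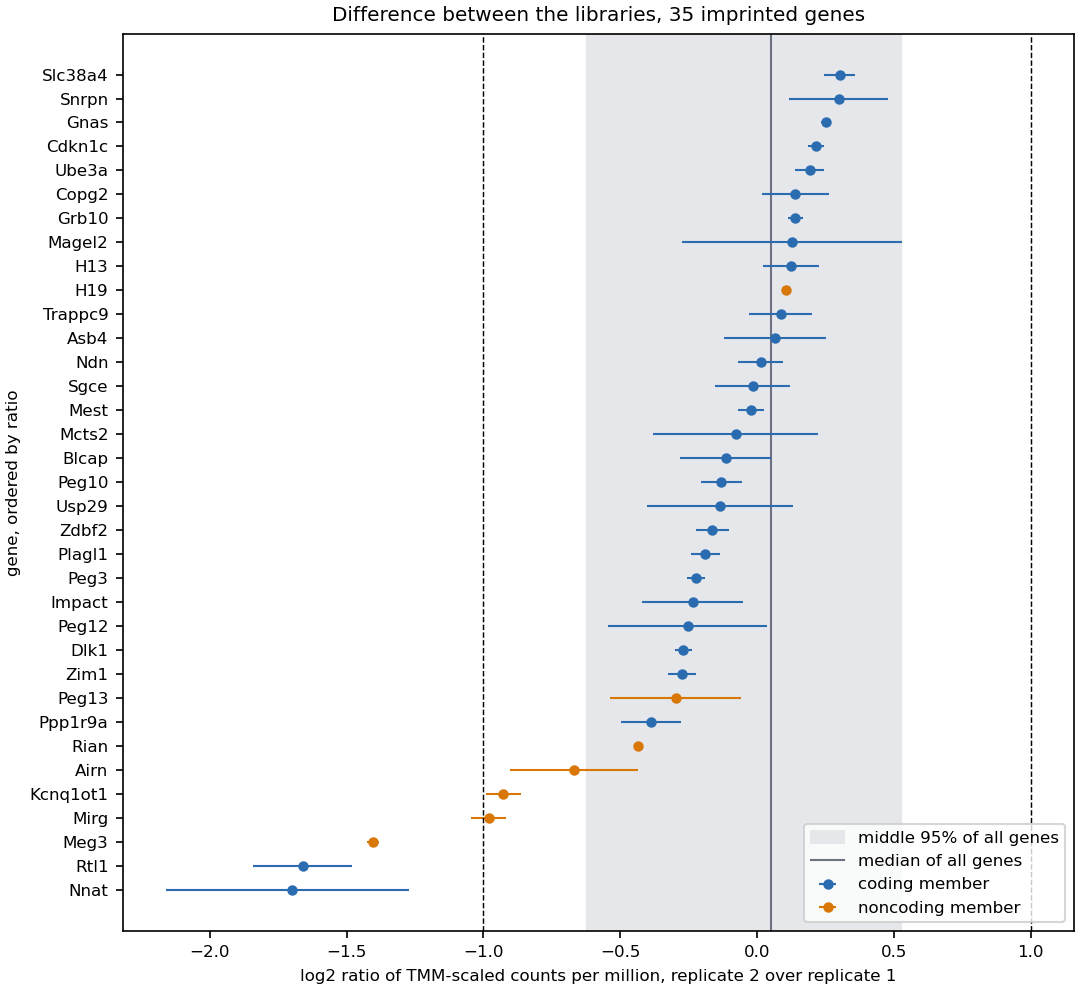
Log2 ratio of TMM-scaled CPM, replicate 2 over replicate 1, for the 35 imprinted genes that averaged at least 100 counts, with bars for the 95% counting interval. The grey band is the middle 95% of all genes (-0.62 to 0.53), the grey line their median, dashed lines mark 2-fold differences, and noncoding genes are orange. Nnat, Rtl1 and Meg3 lie beyond the 2-fold line and Slc38a4 is highest at 0.30.

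In the Peg3 domain at the proximal end of chromosome 7 all 3 listed genes were detected. Peg3, a paternally expressed zinc finger gene known for roles in growth and in muscle stem cells, had a TPM of 86.8 and 64.9. Zim1, a maternally expressed zinc finger gene, had 60.5 and 43.7, and Usp29, a paternally expressed deubiquitinase gene, had 2.87 and 2.23. Peg3 and Usp29 start 147 bases apart on opposite strands, and yet Peg3 TPM was 30.2 and 29.1 times that of Usp29. That ratio hardly varied between the libraries. The stretch between the annotated starts (chr7:6730432-6730577, GRCm38.p6) is shown as the shared promoter of this unequal pair, read on the Peg3 strand; it has 5 CpG dinucleotides and no TGCCGC hexamer on either strand.
Peg3-Usp29: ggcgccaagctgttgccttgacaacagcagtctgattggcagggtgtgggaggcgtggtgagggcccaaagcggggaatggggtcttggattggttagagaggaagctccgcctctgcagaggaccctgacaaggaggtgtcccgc
Peg10 and Sgce on chromosome 6, also divergent and 99 bases apart, were instead near parity. Peg10, a paternally expressed gene derived from a retrotransposon, had a TPM of 16.7 and 12.9, and Sgce, the paternally expressed epsilon-sarcoglycan of the dystrophin complex, had 19.1 and 16.6. The ratio of Peg10 to Sgce was 0.875 and 0.779. In the same cluster Ppp1r9a, which encodes the actin-binding protein neurabin, had 9.48 and 6.76, and Asb4, a SOCS-box gene, had 5.58 and 4.78.

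In the Snrpn-Ube3a cluster, the mouse counterpart of the Prader-Willi and Angelman region, 5 of 7 genes were detected. Ube3a, a ubiquitin ligase gene that is imprinted in neurons and expressed from both copies in most other cells, had a TPM of 43.0 and 45.6. Ndn, which encodes the MAGE-family protein necdin, had 24.2 and 20.6 TPM. Peg12 had 3.14 and 2.22 TPM, while Magel2, with 0.81 and 0.75, and Mkrn3, with 0.45 and 0.42, were below detection in both libraries. Snrpn, a splicing protein gene, had 9.04 and 9.37 TPM. Snurf, which is read from the same messenger, had 20.5 and 27.4 TPM from only 67.5 and 102.9 counts. Its annotated transcript of 216 bases is contained letter for letter in Snrpn-201, so the division of counts between them is a model estimate, and the TPM of Snurf above Snrpn should be read as uncertain. Snhg14, the long host RNA that reads into Ube3a in antisense in neurons, had a TPM of 2.19 and 0.52 here but 12.3 and 7.91 in the kallisto-format tables, so its level is uncertain. None of the 231 small RNA rows of the interval had a count, 230 of them having an effective length of 0.

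Gnas, on distal chromosome 2, encodes the stimulatory G protein subunit Gs-alpha and several imprinted products from other first exons. Its TPM was 1018 and 1025 (1021 ± 5.07, SD, n = 2), and it was the fourth of the list by level. Transcripts that start at the Gs-alpha exon (174330006 to 174330287), which is known to be expressed from both copies in most tissues, held 90.5% and 92.6%. Those that start at the maternal Nesp exon (174284320) held 5.49% and 4.59%, and those that start at the paternal XL exon (174297859) held 1.08% and 0.712%. The start group at 174327570 to 174328023, in the region of the paternal exon 1A, held 1.66% and 0.914% in these tables but 10.8% and 21.6% in the kallisto-format tables. The order of the Gs-alpha and Nesp starts did not differ between table kinds, since the kallisto-format shares were 77.4% and 4.37%.

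Among the growth regulators with a cluster of their own or a small one, Grb10, a maternally expressed adaptor that dampens insulin and IGF signalling and is known to limit muscle growth, had a TPM of 187 and 171. The start at 12037401 on chromosome 11, the upstream CpG-rich promoter, held 79.3% and 81.9% of Grb10, and a downstream start at 12027971 held 3.50% and 2.83%. A start group further downstream, at 12026324 to 12026732, held more, with 14.2% and 13.3%, and a mean of 10.8% in the kallisto-format tables. Mest, a paternally expressed hydrolase gene, had a TPM of 118 and 98.2, and its start group at 30738050 on chromosome 6 held 98.8% and 98.9%. The upstream Mest starts at 30733454 held 0 in these tables and a mean of 17.6% in the kallisto-format tables. Copg2, whose 3′ end overlaps Mest by 912 bases in antisense, was at 14.3 and 12.6 TPM. The 250 bases before the used starts of Grb10 and Mest, of RefSeq (GRCm38.p6), are shown to set these promoters side by side with that of Meg3, with the same capitals.
Grb10: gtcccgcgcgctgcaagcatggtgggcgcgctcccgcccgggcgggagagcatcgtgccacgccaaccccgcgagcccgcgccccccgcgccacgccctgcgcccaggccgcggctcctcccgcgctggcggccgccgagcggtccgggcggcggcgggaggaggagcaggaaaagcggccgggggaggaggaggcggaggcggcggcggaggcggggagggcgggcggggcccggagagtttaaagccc
Mest: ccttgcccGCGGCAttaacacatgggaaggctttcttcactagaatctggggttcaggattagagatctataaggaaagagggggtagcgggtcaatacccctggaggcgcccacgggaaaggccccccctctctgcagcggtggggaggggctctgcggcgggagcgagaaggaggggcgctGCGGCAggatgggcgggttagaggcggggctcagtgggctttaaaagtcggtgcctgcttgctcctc
These stretches are 50 bases shorter than the Meg3 window. The Grb10 stretch (chr11:12037421-12037670, minus strand) has 40 CpG dinucleotides, a GC content of 81.2% and no match, and the Mest stretch (chr6:30737800-30738049, plus strand) has 14 CpG dinucleotides, 62.4% GC and 2 matches. The full 300-base Grb10 window, with 50 bases after the start, has 45 CpG dinucleotides and 1 match, so its lack of a match above depends on the length shown.

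Plagl1, a paternally expressed zinc finger factor at the head of an imprinted growth network, had a TPM of 68.8 and 47.0. Slc38a4, an amino acid transporter gene, had 74.1 and 77.9 TPM, and its log2 ratio of 0.30 was the highest of the 35 genes with enough counts. Zdbf2 had 16.2 and 12.3 TPM, and Impact, which restrains the amino acid sensor GCN2, had 9.71 and 5.74. Nnat, a paternally expressed proteolipid gene known from brain and adipose tissue, had 194 and 57 counts and a TPM of 6.34 and 1.74, a log2 ratio of -1.70 (-2.16 to -1.27). Blcap, in whose intron Nnat lies, had 15.3 and 11.0 TPM and a ratio of -0.11, so the gap of Nnat was not shared by its host. Mcts2, a retrogene in an intron of H13, had 8.55 and 6.83 TPM, and H13, a signal peptide peptidase gene, had 27.1 and 24.8. H13 transcripts that end beyond Mcts2 held 80.1% and 92.3% of H13, and those that end before it, the forms known to be made from the copy on which Mcts2 is active, held 19.9% and 7.71%. Trappc9, a trafficking gene, had 11.8 and 10.6 TPM, and Peg13, a noncoding RNA in its intron, had 2.55 and 1.75. The potassium channel gene Kcnk9 of the same cluster had 11 counts in replicate 1 and none in replicate 2. Nap1l5, Rasgrf1 and Sfmbt2 were below TPM 1 in both libraries, with 12 and 10, 10 and 1, and 58 and 39 counts.

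The choice of transcript varied less between libraries than between table kinds. Of the 34 detected genes 9 had a transcript with at least 90% of the gene's TPM in both libraries, beside 27.3% of all detected genes. Of these 9 genes 6 have 1 annotated transcript, and of the 28 with several 3 passed, Snrpn, Peg10 and Asb4, beside 15.6% of all such genes. The leading transcript was the same in both libraries for 25 of the 28 and the same in both table kinds for 19. Peg10-203 held 95.2% and 97.0% in the RSEM-format tables and a mean of 4.04% in the kallisto-format tables, which gave 96.0% to Peg10-202. The 6567 bases of Peg10-203 are contained in the 6667 of Peg10-202, and their starts are 100 bases apart. For Snrpn the RSEM-format tables gave all of the gene to Snrpn-201 and the kallisto-format tables all of it to Snrpn-202, whose start lies 135 kb upstream. These shares should be read as uncertain.

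**Figure D4:**
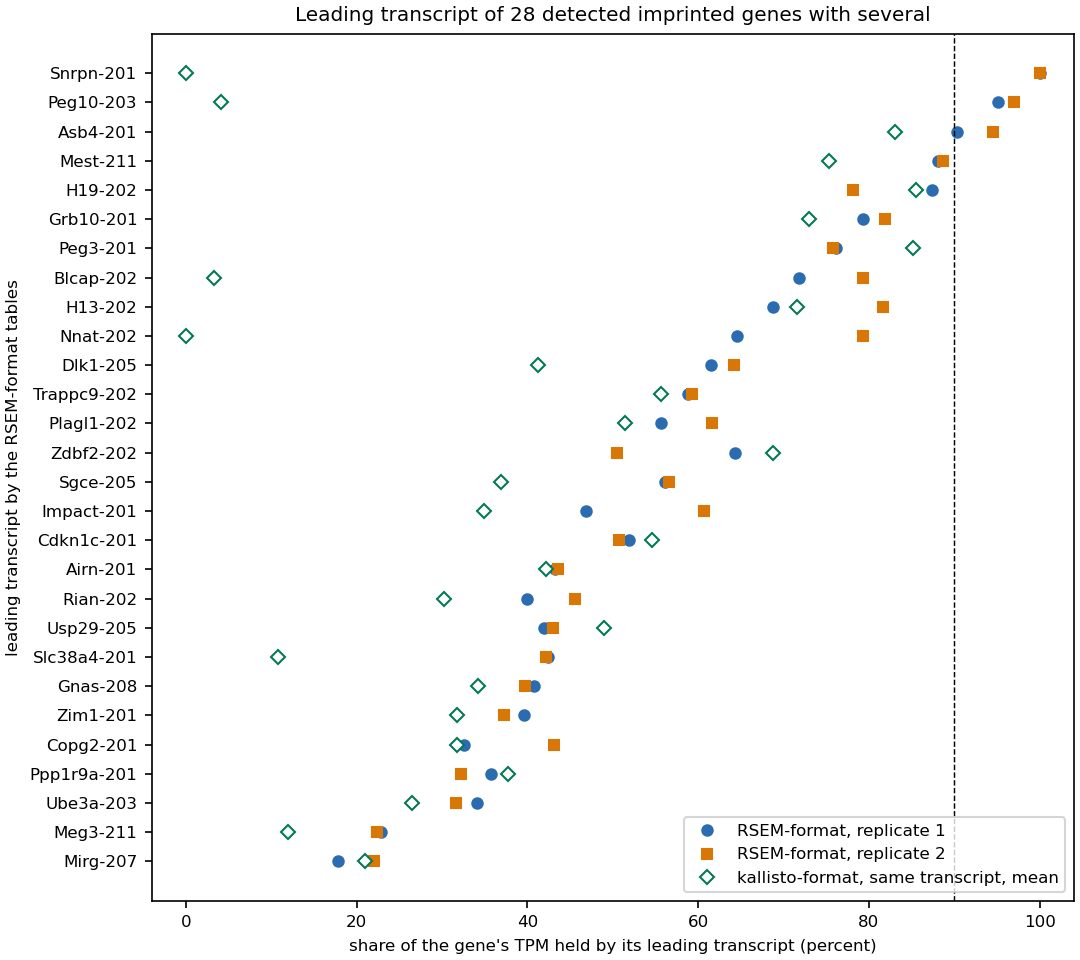
Share of the gene's TPM held by its leading transcript in percent, for the 28 detected imprinted genes with several annotated transcripts: RSEM-format tables of replicate 1 (blue circles) and replicate 2 (orange squares), and the mean share of the same transcript in the kallisto-format tables (open green diamonds). The dashed line is 90%. Circles and squares lie close for most genes, while the diamonds of Snrpn-201, Peg10-203, Blcap-202 and Nnat-202 lie near 0.

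Gene levels were closer between the table kinds than transcript shares. Kallisto-format TPM over RSEM-format TPM had a median log2 ratio of 0.51 for the 37 imprinted genes at TPM 1 or more by either, beside 0.55 for all genes. At least 2-fold apart were 2 of these 37, beside 16.7% of all genes. Impact was higher in the kallisto-format tables, by a log2 ratio of 1.05. Snurf is listed at 0 there in both libraries, and no fold is given.

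Of 28 genes that neighbour the clusters 21 were detected, beside the 22.6% of named and 52.3% of protein-coding genes given above. The list includes genes that are themselves imprinted, among them Igf2 and Igf2r, so it is not a comparison group without imprinting. By TMM-scaled ratio, of the 20 with enough counts 3 were lower in replicate 2 and 17 higher, beside 41.9% of all genes lower. Their median log2 ratio was 0.13. With spike-in scaling 18 of the 20 were lower, where the median of all genes was -0.31. Ratio and TPM need not point the same way. Cd81, with a log2 ratio of 0.15, and Ago2, with 0.06, had a lower TPM in replicate 2, while Nap1l4 and Ddc were higher by both. Cd81, beside the Kcnq1 domain, had a TPM of 119 and 111, Nap1l4 75.05 and 80.29, and Osbpl5 17.8 and 15.4. Ago2 and Chrac1, near Peg13 and Trappc9, had 47.3 and 40.7 and 31.0 and 28.7. Herc3, in whose intron Nap1l5 lies, had 34.4 and 30.2, and Ddc, beside Grb10, had 16.9 and 24.9, the largest log2 ratio of these 20 at 0.78. Zim2 and Zfp264 had no count.

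Of 14 regulators of imprints 12 were detected, beside 52.3% of protein-coding genes. None of the 11 with enough counts was 2-fold different, and their log2 ratios lay between -0.33 and 0.08. Of all genes only 0.859% were at least 2-fold lower and 0.204% at least 2-fold higher, so none of 11 is close to those shares. Zfp57, which protects imprints in the embryo, had a TPM of 1.99 and 1.36, and Zfp445, which shares that role, had 26.9 and 18.3. Trim28, their corepressor, had 71.3 and 57.4. Dnmt1, the maintenance DNA methyltransferase, had 11.4 and 8.31, and its partner Uhrf1 had 8.97 and 5.47. Dnmt3a, which sets new methylation, was the highest of the list at 76.2 and 66.8, and the insulator protein gene Ctcf had 19.4 and 16.1. Of the genes for methylcytosine oxidases, Tet2 had 29.8 and 25.7, Tet3 20.8 and 16.6, and Tet1 11.6 and 7.75. Dppa3 and Dnmt3l, which act in germ cells and the early embryo, had no count.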

How the data were processed

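The labels give 1 group, with biological replicates 1 and 2, of ribosome-reduced, stranded total RNA-seq with ERCC spike-ins. Text files deposited with the tables name the build as mm10 and the annotation as GENCODE M21. The software is not given in the sources used here; by their columns the tables are RSEM-format or kallisto-format. Per the file headers, the deposited gene and isoform files hold expected counts, TPM with posterior mean values, and the percent of each gene's TPM per transcript, and the kallisto-format files hold estimated counts and TPM, in which a model splits reads with several matches. The bounds around TPM in the deposited gene files, a signal on the TPM scale per the file headers, are not printed. Rows with no gene name held 1.38e-05% and 5.00e-06% of counts, spike-ins 0.720% and 0.798%; both were left out except where named.

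Expected counts were rounded, and log2 counts-per-million ratios were computed by TMM with edgeR 4.0.16 (R 4.3.3) and a prior of 0.5 counts. The other scalings tried were DESeq2 1.42.0 size factors, totals of the libraries and totals of the spike-ins. In simulated libraries of 11727 genes, 88% of 200 genes changed by a log2 ratio of 1.5 came out past 2-fold, and 1.8% of the others. Every simulated gene had the same coefficient of variation, 0.2, so these rates cannot be carried over to single genes. The fitted coefficient of variation between the libraries was 0.192 over 16790 genes. Starts within 500 bases were joined. Kallisto-format values were summed per gene. Promoter and microRNA sequences are RefSeq's (GRCm38.p6). Norad, of the nuclear-retained list, was not matched by symbol.

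The imprinted genes and all lists were chosen with earlier results of these data known. The naming rule took in all 46 genes, listed neighbours and regulators, leading transcripts, transcripts of at least 10% of a gene, and the 5 small RNA rows of the clusters with the most counts; of neighbours, regulators and transcripts a part is named, chosen with values seen, and the rest are in the counts. Gm26945, Gm37899, B830012L14Rik and Snhg14 were named after their values were seen.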

Additional observations from a re-analysis of the deposited data

How the results depend on the processing

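No paired analysis was possible because the study has 1 group, and with 1 library left no ratio between libraries can be formed. The number of imprinted genes detected stayed between 31 and 36 in all settings tried, and 34 and 36 were detected without replicate 1 and without replicate 2. The share of named TPM, 1.25%, became 1.78% with kallisto-format TPM, 1.92% of expected counts, 0.540% without H19 and 2.54% over nuclear coding and long noncoding genes alone; without a replicate it lay between 1.13% and 1.38%. The 3 genes at least 2-fold different became 5 with library totals, 6 with spike-in totals, 6 at a 1.5-fold limit and 7 with any count. The 2 genes at least 2-fold apart between table kinds became 17 at a 1.5-fold limit, 1 at a 4-fold limit, 1 with a pseudocount of 1 and 1 in counts. The cause was not tested. The counts of leading transcripts lay between 7 and 10. The log2 ratios of all 35 genes moved by less than the SD over all genes, 0.436, under each of 6 alternatives, though 9 changed sign with library totals and 13 with spike-in totals. DESeq2 factors, totals and spike-ins move all genes by nearly the same amount, 0.0061, -0.21 and -0.36. For these scalings the outcome was fixed by that amount. The SD is also wide beside the quartiles of all genes, -0.12 and 0.22. Of 28 leading-transcript shares, 24 moved by more than the SD between libraries with kallisto-format TPM. With 2 libraries the SD itself is imprecise, and depth limits genes under 100 counts.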
